A study of Arabidopsis thaliana with 18 samples.

Results

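The 5 genes described here encode small heat shock proteins of Arabidopsis thaliana. They are HSP17.6C (AT1G53540) and HSP17.6B-CI (AT2G29500) of cytosolic class I, HSP17.4-CIII (AT1G54050) of class III, HSP15.4 (AT4G21870) and HSP14.2 (AT5G47600). They were chosen by locus, with earlier results of these data known. Each has 1 probe set assigned to it alone, and they are 5 of the 13350 genes measured by such a probe set. The study asks whether BRU1 (also called TONSOKU), which acts in the nucleus to keep replicating DNA intact, takes part in heat stress memory. Wild-type Columbia (Col) and bru1 mutant seedlings, the latter of an allele the labels do not give, grew on GM medium with 1% glucose under 16 h of light at 23 °C and 8 h of darkness at 21 °C. At an age of 4 d they were acclimated by 1 h at 37 °C, 1.5 h at 23 °C and 45 min at 44 °C, starting 6 h after dawn. Total RNA of whole seedlings was taken 4 h or 52 h after acclimation, and untreated controls were taken at the 4 h time point. This gave 6 groups of 3 biological replicates, measured on 18 Affymetrix ATH1 arrays.

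Small heat shock proteins bind proteins that unfold in heat and hold them until ATP-driven chaperones such as HSP70 and HSP101 refold them. Plants have many of them, sorted into classes by sequence and by the compartment they work in. Class I is found in the cytosol, while other classes work in the nucleus, mitochondria, plastids, peroxisomes or the endoplasmic reticulum. Heat shock factors switch on most of the genes within minutes of heat, and for some of them the transcripts stay high for days, which is used as a molecular sign of heat stress memory. The name of the set holds a location, and nothing in transcript data bears on where a protein is.

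Levels are log2 expression as deposited, made with RMA (background correction, quantile normalisation and median polish per probe set). Array medians lay between 6.49 and 6.55, and within a group the arrays correlated at 0.986 to 0.996 on average. The background level was set at 4.39, the highest of the arrays' lower quartiles, and group means up to it are described as at background. Levels of different genes come from different probe sets and are not set against each other. Changes are differences of log2 group means ± SE, tested with limma in a model of all 18 arrays, with Benjamini-Hochberg adjusted p-values over 22746 probe sets and a threshold of 0.05. Seedlings at 52 h were older than the controls and the 4 h seedlings. In comparisons of 52 h with either, age and time after heat cannot be told apart. No hybridisation run is named in the labels, so run and genotype cannot be told apart. In RNA of whole seedlings, fewer cells of a type and less RNA per cell cannot be told apart either.

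HSP17.6C, a class I protein gene, was at background in untreated seedlings and far above it 4 h after heat. Its log2 levels in Col controls were 4.19, 4.27 and 4.57, and in bru1 controls 4.03, 4.01 and 4.31. At 4 h they were 13.62, 13.69 and 13.32 in Col and 13.76, 13.61 and 13.71 in bru1. Every heated array lay far above every control array. At 52 h the levels were 10.02, 9.23 and 11.27 in Col and 9.66, 10.44 and 8.42 in bru1. These 52 h arrays lay between the controls and the 4 h arrays without touching either group, but spread over about 2 log2 units within each genotype (SD 1.03 in Col and 1.02 in bru1, n = 3). The rise at 4 h was at least 9.11 in Col (adjusted p = 2.7e-11) and at least 9.37 in bru1 (adjusted p = 1.6e-11). At 52 h the gene was still at least 5.74 above the controls in Col (adjusted p = 1.6e-07) and at least 5.18 in bru1 (adjusted p = 6.0e-07). The model takes 1 spread from all 6 groups (pooled SD 0.61 for HSP17.6C), which is narrower than the SD at 52 h. Under the alternative fits of the closing section these 2 adjusted p-values of the gene were at most 1.6e-04 and 2.6e-04. From 4 h to 52 h its transcripts fell by 3.37 on the log2 scale in Col (SE 0.42, a 10.3-fold lower level) and fell by 4.19 in bru1 (SE 0.42, 18.2-fold lower).

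**Figure D1:**
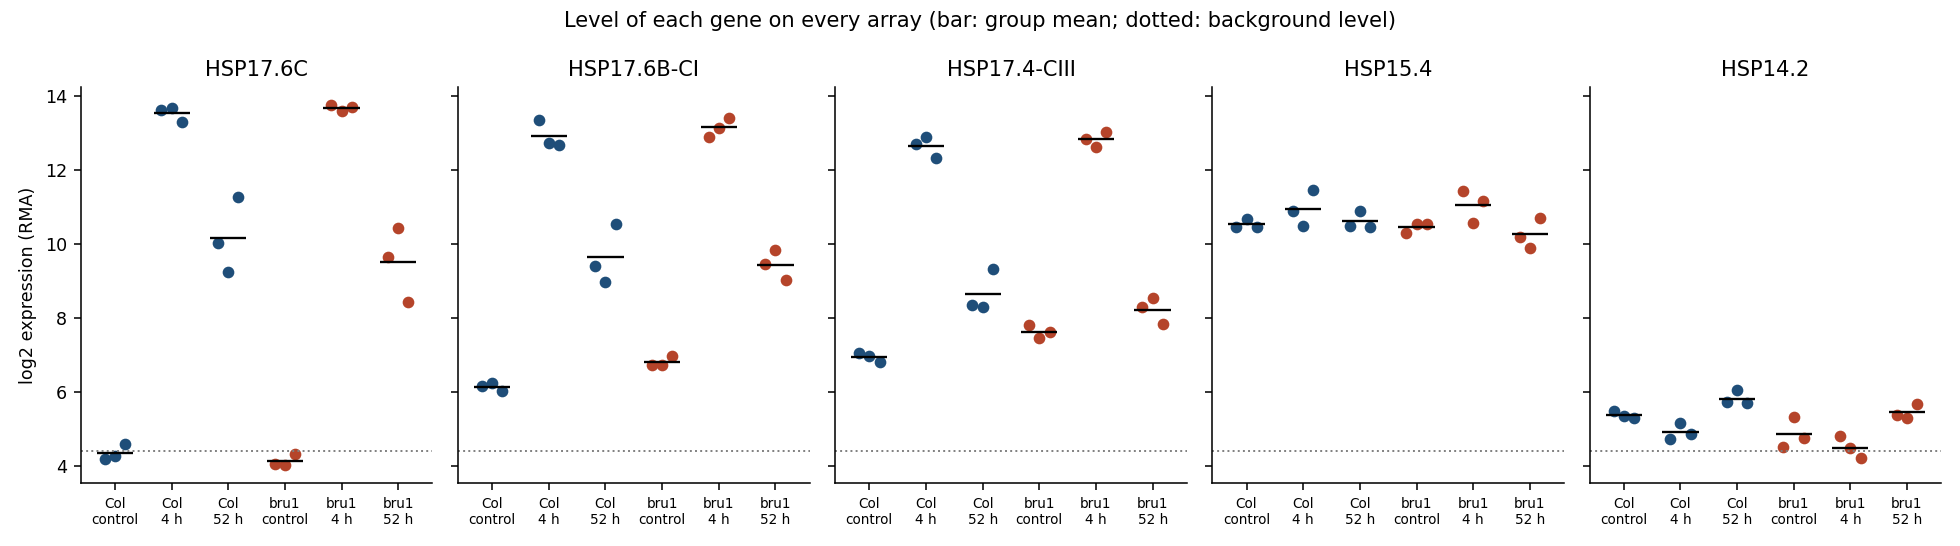
Log2 expression (vertical axis) of the 5 genes on each of the 18 arrays, by group (horizontal axis), with 1 point per array, a bar at the group mean and a dotted line at the background level of 4.39. HSP17.6C, HSP17.6B-CI and HSP17.4-CIII stand high at 4 h and lower at 52 h in both genotypes, while HSP15.4 and HSP14.2 move by less than 1 log2 unit; heights of different panels come from different probe sets and are not comparable.

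HSP17.6B-CI, the other class I gene, followed the same course from a measurable starting level. Col controls stood at 6.15, 6.23 and 6.01 and bru1 controls at 6.72, 6.71 and 6.96, so the untreated genotypes did not overlap. At 4 h Col reached 13.35, 12.73 and 12.70, and bru1 12.91, 13.15 and 13.42. At 52 h Col stood at 9.41, 8.98 and 10.56 and bru1 at 9.47, 9.83 and 9.02. The 4 h arrays of both genotypes formed the highest block, the 52 h arrays a middle block and the controls the lowest, with no overlap between blocks. The gene rose by 6.80 ± 0.29 in Col (adjusted p = 1.4e-11) and by 6.36 ± 0.29 in bru1 (adjusted p = 3.0e-11) at 4 h, a 111-fold and an 82.3-fold higher level. At 52 h it was 3.52 ± 0.29 above the controls in Col (adjusted p = 6.3e-07, at most 4.4e-04 under the alternative fits). In bru1 it was 2.64 ± 0.29 above them (adjusted p = 2.9e-05, at most 3.9e-04). Between 4 h and 52 h it fell by 3.28 in Col (SE 0.29) and fell by 3.72 in bru1 (SE 0.29).

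HSP17.4-CIII, the single class III gene of the plant, rose strongly as well and, of these 3 heat-induced genes, had the estimates nearest to its controls at 52 h. The controls read 7.04, 6.97 and 6.79 in Col and 7.80, 7.44 and 7.62 in bru1, again with every bru1 array above every Col array. The share of all probe sets separated in this way was not counted. In limma on all 18 arrays neither HSP17.6B-CI nor HSP17.4-CIII passed between untreated genotypes (adjusted p = 0.17 and 0.069). The 4 h arrays read 12.71, 12.90 and 12.33 in Col and 12.84, 12.63 and 13.03 in bru1. By 52 h the readings were 8.35, 8.30 and 9.32 in Col and 8.29, 8.55 and 7.83 in bru1. In Col a clear gap separated 52 h arrays from controls, whereas in bru1 the lowest 52 h array (7.83) lay just above the highest control (7.80). At 4 h the rise was 5.71 ± 0.23 in Col (adjusted p = 6.0e-12) and 5.21 ± 0.23 in bru1 (adjusted p = 2.3e-11). The 52 h level in Col was 1.72 ± 0.23 above the controls (adjusted p = 9.0e-05, at most 0.0031 under the alternative fits), a 3.30-fold higher level. The bru1 value at 52 h was 0.60 ± 0.23 (adjusted p = 0.14, 95% interval 0.11 to 1.09), which did not pass the test. From 4 h to 52 h it fell by 3.99 in Col (SE 0.23) and fell by 4.61 in bru1 (SE 0.23), estimates larger in size than those of the class I genes in the same genotype, though the difference between genes was not tested.

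HSP15.4 was expressed without heat and changed little. Its levels in Col were 10.46, 10.68 and 10.47 in controls, 10.89, 10.50 and 11.47 at 4 h, and 10.50, 10.91 and 10.46 at 52 h. In bru1 they were 10.30, 10.54 and 10.56 in controls, 11.43, 10.58 and 11.18 at 4 h, and 10.18, 9.89 and 10.71 at 52 h. Neighbouring groups overlapped at every step of the order of group means, which ran from 10.26 (bru1 52 h) to 11.06 (bru1 4 h). That order mixes the genotypes. Within bru1 the lowest 4 h array (10.58) lay just above the highest control (10.56), while in Col the 4 h arrays and controls overlapped. The 4 h change was 0.42 ± 0.24 in Col (adjusted p = 0.20, 95% interval -0.093 to 0.93) and 0.60 ± 0.24 in bru1 (adjusted p = 0.059, 95% interval 0.088 to 1.11), and neither passed the test. Without bru1 4 h replicate 2 the bru1 value was 0.84 and passed (adjusted p = 0.012), and it also passed after a second quantile normalisation, with dim probe sets left out and in a fit of those 2 groups alone. At 52 h the gene was 0.087 ± 0.24 from the Col controls and -0.20 ± 0.24 from the bru1 controls (adjusted p = 0.87 and 0.74). Between 4 h and 52 h it fell by 0.80 in bru1 (SE 0.24, adjusted p = 0.014), although the 2 groups shared part of their range, and this call was lost without bru1 4 h replicate 1 (-0.62, adjusted p = 0.083) or bru1 52 h replicate 2 (-0.62, adjusted p = 0.076). In Col that difference was -0.33 ± 0.24 (adjusted p = 0.34).

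HSP14.2 had 4 h means below its control means, unlike the other 4 genes, and its highest levels at 52 h. Col controls read 5.48, 5.33 and 5.30, the 4 h arrays 4.71, 5.15 and 4.84, and the 52 h arrays 5.71, 6.05 and 5.68. In Col the 3 groups did not overlap, with 4 h lowest and 52 h highest. In bru1 the controls read 4.49, 5.30 and 4.75, the 4 h arrays 4.80, 4.46 and 4.20, and the 52 h arrays 5.38, 5.29 and 5.66. Here the controls overlapped both later groups, while 4 h and 52 h stayed apart, and the bru1 4 h mean of 4.49 was only just above background. The 4 h change was -0.47 ± 0.19 in Col (adjusted p = 0.063) and -0.36 ± 0.19 in bru1 (adjusted p = 0.15), and the 52 h change 0.44 ± 0.19 in Col (adjusted p = 0.13) and 0.60 ± 0.19 in bru1 (adjusted p = 0.068). None of these 4 values passed, but single arrays decided some of them. The Col value at 4 h was -0.59 without Col 4 h replicate 2 (adjusted p = 0.036) and passed in a fit of those 2 groups alone, the bru1 value at 4 h was -0.54 without bru1 control replicate 1 (adjusted p = 0.040), and the bru1 value at 52 h was 0.82 without bru1 control replicate 2 (adjusted p = 0.014). The contrast of 52 h with 4 h passed in both genotypes, with a rise of 0.91 ± 0.19 in Col (adjusted p = 0.0012) and of 0.96 ± 0.19 in bru1 (adjusted p = 5.7e-04).

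In all, 3 of the 5 genes rose in Col at 4 h and 0 fell, where 36.4% of all probe sets passed the test, 18.2% higher and 18.2% lower. The same count of 3 was found in bru1 at 4 h (39.4% of all probe sets passed, 19.9% higher and 19.5% lower) and in Col at 52 h (14.8% passed, 6.93% higher and 7.84% lower), and 2 rose in bru1 at 52 h (7.24% passed, 3.05% higher and 4.19% lower). Their median change was 5.71 in Col and 5.21 in bru1 at 4 h and 1.72 and 0.60 at 52 h, while the median of all probe sets lay between -0.018 and 0.011 in these comparisons. Because the genes were chosen with earlier results of these data known, their counts and medians beside those of all probe sets are a description and no test. From 4 h to 52 h, 1 gene rose and 3 fell in Col (31.8% of all probe sets passed, 14.9% higher and 16.9% lower), and 1 rose and 4 fell in bru1 (38.4% passed, 18.3% higher and 20.1% lower). The array's 25S ribosomal RNA probe set moved with the same conditions (here mean ± SD, n = 3 each). It stood at 11.50 ± 0.20 in Col controls, 12.82 ± 0.40 at 4 h and 12.27 ± 0.19 at 52 h. In bru1 it stood at 11.13 ± 0.34, 13.25 ± 0.013 and 12.18 ± 0.12. Of the 8 root markers listed, 3 were measured, and all 3 were lower at 4 h in both genotypes. The log2 of their summed signal ranged from 13.40 to 13.56 in Col controls, 12.05 to 12.62 at 4 h and 13.37 to 13.46 at 52 h. In bru1 it ranged from 13.27 to 13.54, 11.86 to 12.05 and 12.91 to 13.22. Each marker was above background in every group. PYK10 makes up most of this sum, with a mean of 13.44 in Col controls beside 6.86 for EXPA7 and 6.32 for EXPA18. That sum leaves out how single markers stood at 52 h: EXPA7 was -1.15 ± 0.24 from the controls in Col (adjusted p = 0.0029) and -0.79 ± 0.24 in bru1 (adjusted p = 0.054). EXPA18 was lower in both genotypes (-1.11 ± 0.24, adjusted p = 0.0036, and -0.91 ± 0.24, adjusted p = 0.024), and PYK10 did not pass (-0.026 ± 0.13 and -0.37 ± 0.13). The 3' minus 5' difference of the actin control probe sets is a measure of RNA integrity (mean ± SD, n = 3 each). It was 2.73 ± 0.058 in Col controls, 3.27 ± 0.15 at 4 h and 3.17 ± 0.28 at 52 h. In bru1 it was 3.03 ± 0.061, 3.51 ± 0.068 and 3.01 ± 0.080. The only measured shoot marker of 12, the Rubisco activase gene RCA, stayed between 13.79 and 14.27 on all arrays. The part of these differences in the results for the 5 genes was not tested.

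**Figure D2:**
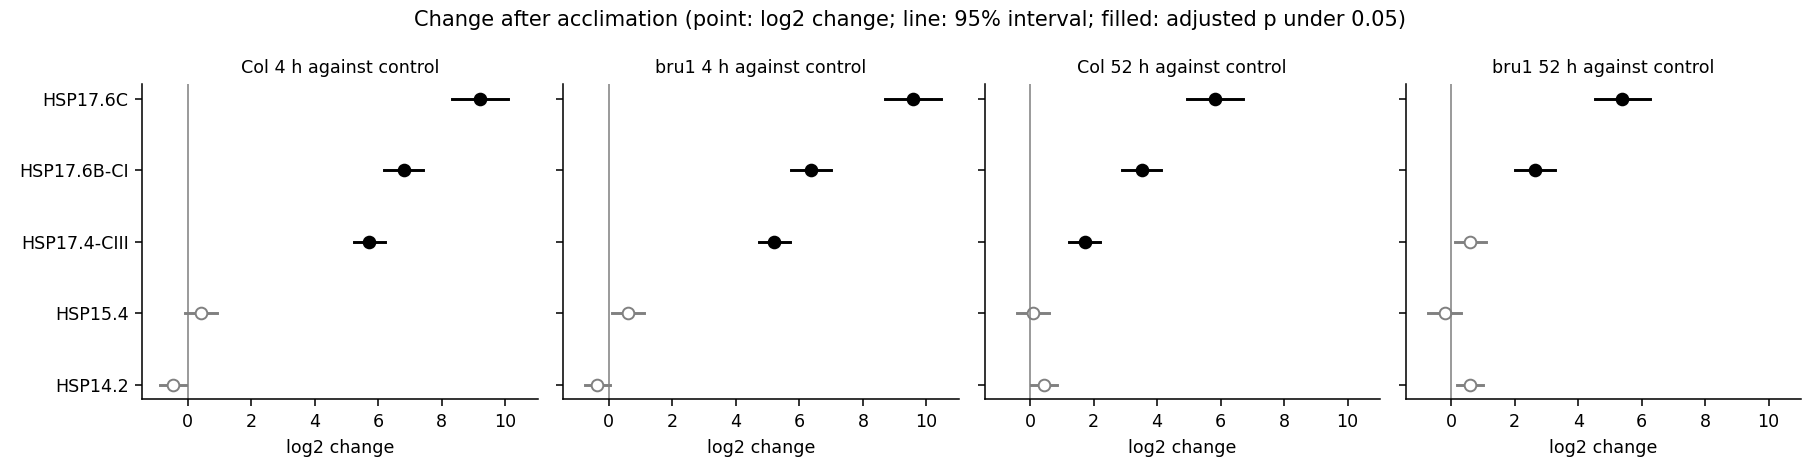
Log2 change against the untreated control of the same genotype (horizontal axis) for each gene (vertical axis), in 4 panels by genotype and time; points are limma estimates, lines 95% intervals, and filled points passed the threshold. The upper 3 genes stand at 5.21 or more at 4 h in both genotypes, HSP17.4-CIII at 52 h is filled in Col (1.72) and open in bru1 (0.60), and HSP15.4 and HSP14.2 are open in all panels; points of HSP17.6C are fitted values from controls at background, and its lower bounds are given in the text.

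Changes averaged over both genotypes, which were among the 4 contrasts added after the values had been seen, resolved the smaller shifts. At 4 h HSP15.4 rose by 0.51 ± 0.17 (adjusted p = 0.020) and HSP14.2 fell by 0.42 (SE 0.13, adjusted p = 0.015), a 1.42-fold and a 1.33-fold change. All 5 genes thus passed in this contrast, 4 higher and 1 lower, as did 48.7% of all probe sets (24.9% higher and 23.9% lower). The HSP15.4 call was lost without Col 4 h replicate 3 (0.38, adjusted p = 0.065) or bru1 4 h replicate 1 (0.42, adjusted p = 0.064). At 52 h HSP14.2 was 0.52 ± 0.13 above the controls (adjusted p = 0.0095), HSP17.4-CIII 1.16 ± 0.16 above (adjusted p = 6.4e-05) and HSP15.4 at -0.059 ± 0.17 (adjusted p = 0.87), and 4 of the 5 genes passed, all higher (20.5% of all probe sets, 9.54% higher and 10.9% lower). Between 4 h and 52 h all 5 passed (46.6% of all probe sets, 21.6% higher and 25% lower), HSP14.2 with a rise of 0.94 ± 0.13 (adjusted p = 1.5e-05) and HSP15.4 with a fall of 0.57 (SE 0.17, adjusted p = 0.011).

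Comparison of bru1 with Col asks whether the mutant reaches or keeps other levels of these transcripts. None of the 5 genes passed in limma in untreated seedlings, at 4 h or at 52 h. Of all probe sets 10.3%, 13.4% and 11.5% passed there. An unadjusted limma p under 0.05 was found for 3, 1 and 0 of the 5. The share of all probe sets under that unadjusted cut was not counted, so these counts have nothing to be read against. In untreated seedlings HSP17.6B-CI was 0.67 ± 0.29 higher in bru1 (adjusted p = 0.17, 95% interval 0.055 to 1.29) and HSP17.4-CIII 0.69 ± 0.23 higher (adjusted p = 0.069, 95% interval 0.20 to 1.18). Both passed when only the untreated arrays of the 2 genotypes entered the fit (adjusted p = 0.0021 and 0.0026). HSP14.2 was -0.52 ± 0.19 from Col there (adjusted p = 0.092), or -0.75 without bru1 control replicate 2 (adjusted p = 0.016). At 4 h the differences of the 3 strongly heat-induced genes were 0.15 to 0.24, with 95% intervals that reached from -0.72 to 1.03 for HSP17.6C, -0.38 to 0.85 for HSP17.6B-CI and -0.30 to 0.68 for HSP17.4-CIII. At 52 h all 5 estimates were below 0, from -0.67 ± 0.42 for HSP17.6C (adjusted p = 0.35) and -0.44 ± 0.23 for HSP17.4-CIII (adjusted p = 0.26) to -0.21 ± 0.29 for HSP17.6B-CI (adjusted p = 0.73). That last value was 0.25 without Col 52 h replicate 3.

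**Figure D3:**
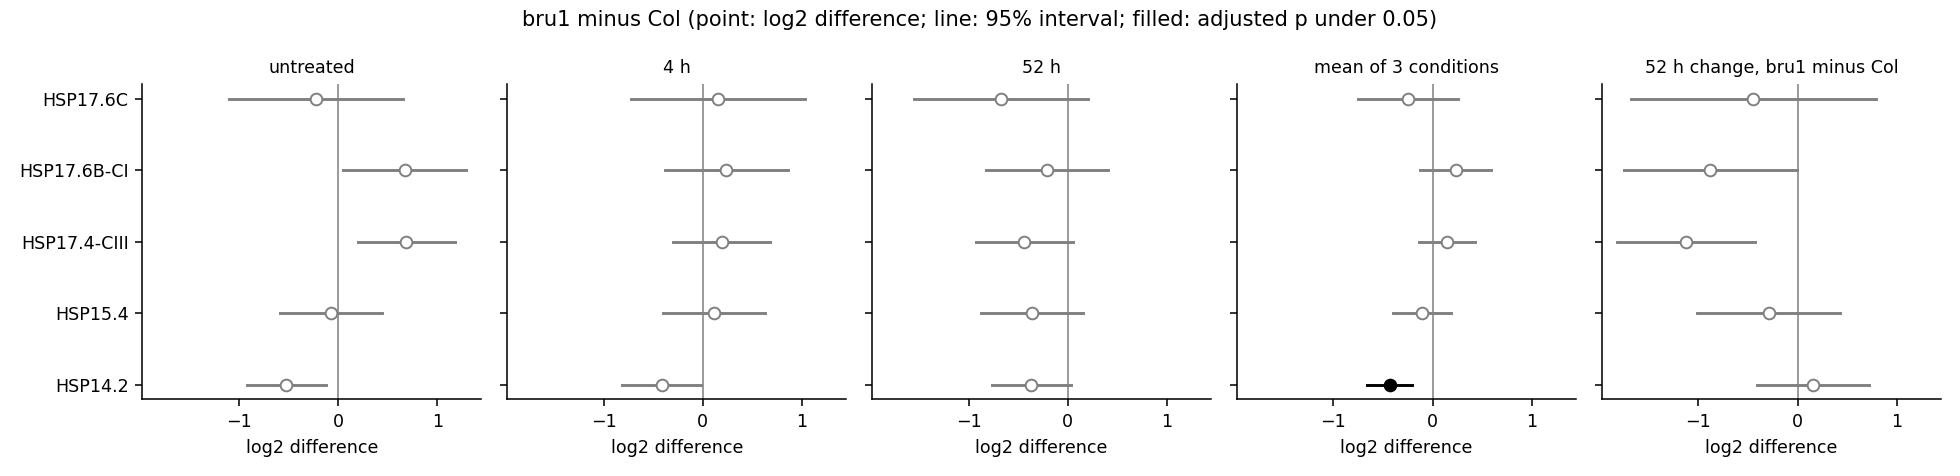
Difference of bru1 minus Col on the log2 scale (horizontal axis) for each gene (vertical axis), untreated, at 4 h, at 52 h, averaged over the 3 conditions, and as the difference between genotypes of the 52 h change; points are limma estimates, lines 95% intervals, and filled points passed the threshold. Only HSP14.2 in the average over conditions is filled (-0.43), and HSP17.4-CIII has the lowest estimate of the last panel (-1.12). HSP17.6C was at background in both control groups, so its points in the first panel and the last 2 panels are not exact differences.

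Whether the heat response itself differed between genotypes was tested by the interaction, the bru1 change minus the Col change. Of the 5 genes 0 passed in limma at 4 h, at 52 h or for the step from 4 h to 52 h. Of all probe sets 0.343%, 0.119% and 0.576% passed there. An unadjusted limma p under 0.05 was found for 0, 2 and 0 of the 5, again with no share of all probe sets counted at that cut. The 52 h change of HSP17.4-CIII was 1.12 log2 units smaller in bru1 by estimate (-1.12 ± 0.33, unadjusted p = 0.0031, adjusted p = 0.24, 95% interval -1.82 to -0.43), and that of HSP17.6B-CI was -0.88 ± 0.41 (unadjusted p = 0.048, adjusted p = 0.54). For both genes the bru1 controls were the higher ones and the bru1 52 h means the lower ones. The interactions of HSP15.4 and HSP14.2 at 52 h were -0.29 ± 0.34 and 0.15 ± 0.27 (adjusted p = 0.87 and 0.93). At 4 h the interactions of these 4 genes lay between -0.50 (HSP17.4-CIII) and 0.18 (HSP15.4). The counts of 5 include HSP17.6C, whose 2 control groups were both at background. Its fitted interactions against the controls are therefore not exact differences and are not listed in this paragraph. For 52 h against 4 h, which leaves the controls out, its interaction was -0.82 (adjusted p = 0.58 in limma).

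Averaged over the 3 conditions, HSP14.2 was lower in bru1, with a difference of -0.43 ± 0.11 (adjusted p = 0.0063, 1.35-fold), with -0.52, -0.41 and -0.37 in controls, at 4 h and at 52 h. It was the only 1 of the 5 genes to pass this contrast, also added after the values had been seen, in which 27.9% of all probe sets passed. The call held without any single array (-0.51 to -0.37, adjusted p at most 0.015). In bru1 HSP14.2 read near the background level of 4.39 in controls (mean 4.85) and at 4 h (mean 4.49, lowest array 4.20). The part of background signal in this difference was not tested. HSP15.4, HSP17.4-CIII and HSP17.6B-CI lay between -0.11 ± 0.14 (HSP15.4) and 0.23 ± 0.17 (HSP17.6B-CI, adjusted p = 0.34), and HSP17.6B-CI passed without Col 52 h replicate 3 (0.38, adjusted p = 0.023). The corresponding 3' minus 5' difference of the GAPDH control probe sets was 0.41 ± 0.047 in Col controls and 0.67 ± 0.097 in bru1 controls. It was 0.62 ± 0.093 and 0.60 ± 0.034 at 4 h, and 0.48 ± 0.059 and 0.70 ± 0.054 at 52 h (mean ± SD, n = 3 each). The actin difference given above was higher in bru1 than in Col in controls and at 4 h and lower at 52 h. The root marker EXPA18 was higher in bru1 in controls, at 4 h and at 52 h (0.88, 0.98 and 1.08, adjusted p = 0.023, 0.010 and 0.0058). PYK10 was lower in bru1 at 4 h (-0.44, adjusted p = 0.033) and did not pass in the other conditions, and EXPA7 passed in none. The part of the control probe sets or of these markers in the genotype difference was not tested.

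Among the 15 other small heat shock protein genes listed, 6 had a probe set of their own. In Col at 4 h 5 of the 6 rose and 0 fell (median 4.40), and at 52 h 4 rose (median 2.63). In bru1 the counts were also 5 and 4 (medians 5.23 and 2.09). Of all probe sets, 18.2% passed higher in Col at 4 h and 6.93% at 52 h, and 19.9% and 3.05% in bru1. The list was chosen with earlier results of these data known, so these counts are a description. AT5G54660 was the member of the family that resembled HSP15.4 and HSP14.2 in size of change, at -0.071 ± 0.22 in Col (adjusted p = 0.85) and -0.31 ± 0.22 in bru1 (adjusted p = 0.28) at 4 h. The peroxisomal HSP15.7 (AT5G37670) stood 4.28 ± 0.37 above the Col controls at 4 h and 4.09 ± 0.37 at 52 h, and mitochondrial HSP23.5 (AT5G51440) 4.53 ± 0.39 and 1.17 ± 0.39, the last without passing (adjusted p = 0.056). Against these, HSP17.4-CIII had 5.71 and 1.72, HSP17.6C at least 9.11 and at least 5.74, and the endoplasmic reticulum gene HSP22 (AT4G10250) 8.08 and 5.25. None of the 6 passed the interaction in limma at 4 h, at 52 h or for 52 h against 4 h. Of all probe sets 0.343%, 0.119% and 0.576% passed there. An unadjusted limma p under 0.05 was found for 1, 0 and 3 of the 6, with no share of all probe sets counted at that cut. Of the 21 larger chaperone and co-chaperone genes 8 were measured, and 5 rose in Col at 4 h, led by ROF2 (AT5G48570, 6.34), HOP3 (AT4G12400, 5.53), HSA32 (4.92) and FES1A (2.49). In bru1 7 of the 8 rose at 4 h, and 3 rose at 52 h in each genotype. The shares of all probe sets that passed higher, given above for the small heat shock protein genes, apply here too. The 13 heat shock factor and regulator genes listed had no probe set of their own in the table used here and were not analysed here.

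**Figure D4:**
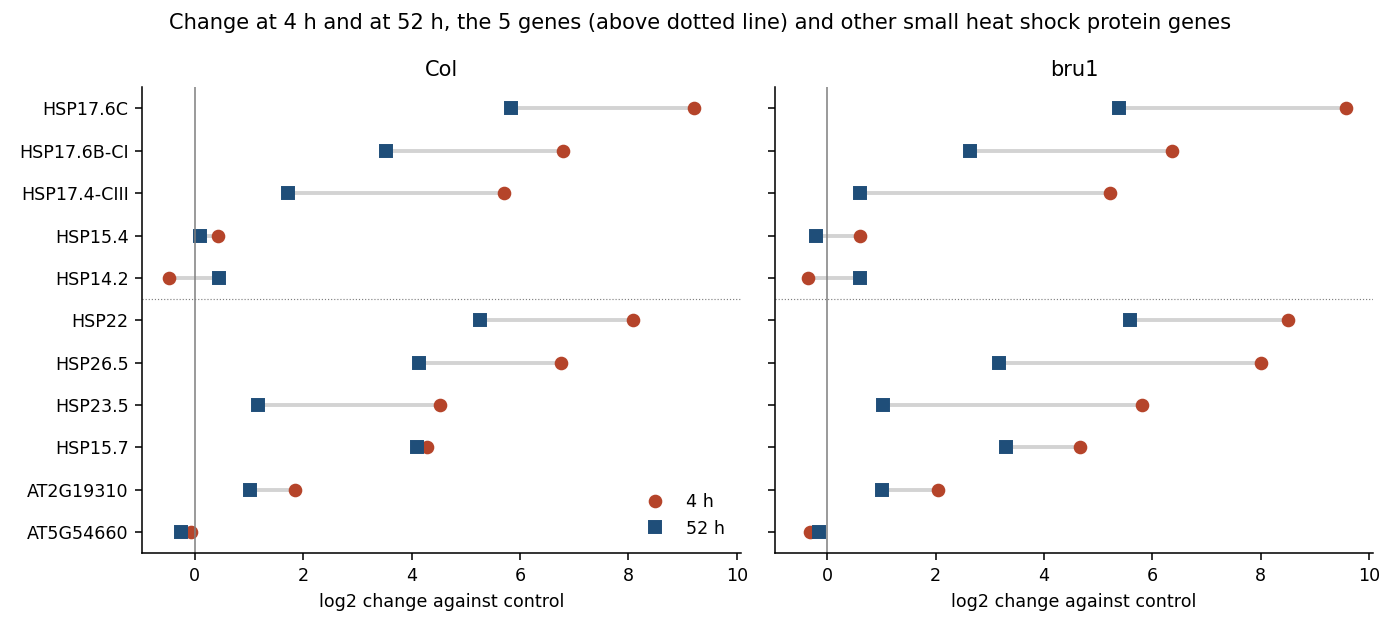
Log2 change against the untreated control (horizontal axis) at 4 h (circles) and 52 h (squares) for the 5 genes and for 6 other small heat shock protein genes (vertical axis, below the dotted line), in Col and in bru1. The grey bars are shortest for HSP15.7, HSP15.4 and AT5G54660 in Col and long for HSP17.4-CIII and HSP23.5; values of HSP17.6C and HSP26.5 start from controls not shown to be above background.

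For the 3 heat-induced genes the replicates differed most at 52 h, and these genes differed together. The highest SD within a group was 0.49 for HSP15.4, in Col at 4 h, and 0.41 for HSP14.2, in bru1 controls (n = 3 each). On Col 52 h replicate 3 HSP17.6C stood 1.09, HSP17.6B-CI 0.91 and HSP17.4-CIII 0.67 above the group mean, and on Col 52 h replicate 2 they lay below it (-0.94, -0.67 and -0.36). In bru1 at 52 h replicate 2 was the high array (0.93, 0.39 and 0.33) and replicate 3 the low one (-1.08, -0.42 and -0.40). On those bru1 arrays HSP15.4 stood at -0.37 and 0.45 and HSP14.2 at -0.15 and 0.22, on the opposite side of the mean. Of the 6 other small heat shock protein genes, 4 were also highest on Col 52 h replicate 3, 4 highest on bru1 52 h replicate 2 and 4 lowest on bru1 52 h replicate 3. The 25S ribosomal RNA control was 0.21 above its group mean on Col 52 h replicate 3, -0.12 on Col 52 h replicate 2, -0.038 on bru1 52 h replicate 2 and -0.096 on bru1 52 h replicate 3. Across the 18 arrays, deviations from the group mean correlated with r = 0.83 between HSP17.6C and HSP17.6B-CI, 0.82 between HSP17.6C and HSP17.4-CIII and 0.81 between HSP17.6B-CI and HSP17.4-CIII, as a description of arrays that share RNA and normalisation. For HSP15.4 against these 3 genes r lay between -0.55 and -0.41, and for HSP14.2 between -0.53 and -0.38. The SD within groups, pooled over the 6 groups, was 0.61 for HSP17.6C, 0.42 for HSP17.6B-CI, 0.33 for HSP17.4-CIII, 0.34 for HSP15.4 and 0.26 for HSP14.2, against a median of 0.16 over all probe sets.

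**Figure D5:**
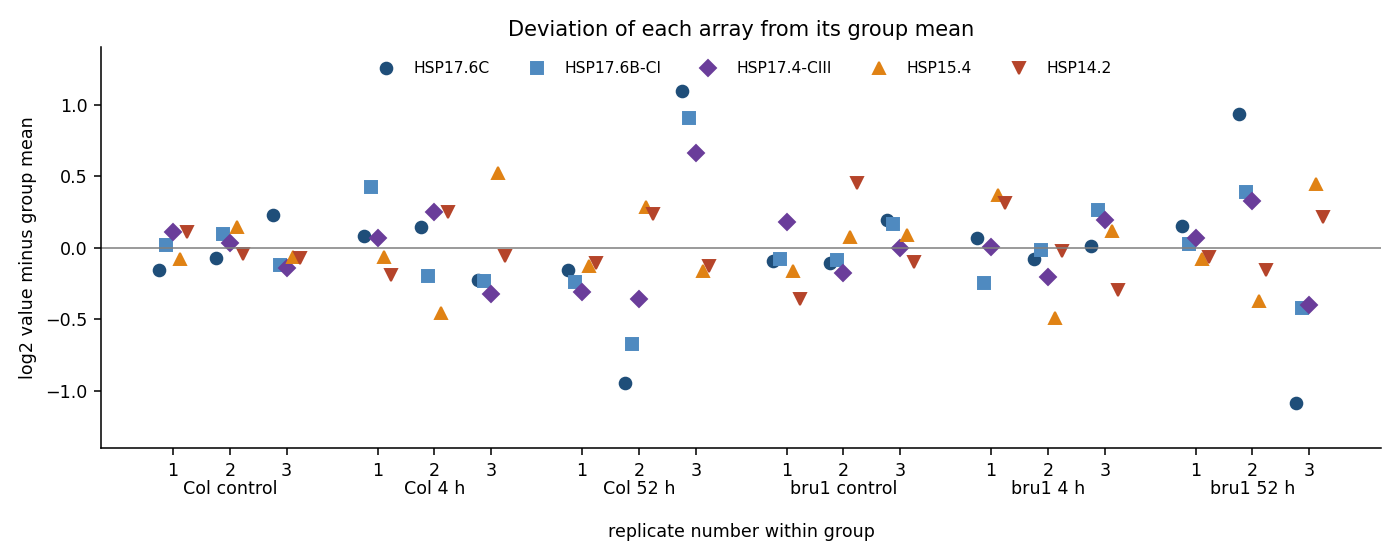
Deviation of each array from its group mean on the log2 scale (vertical axis) for the 5 genes, by group and replicate number (horizontal axis), with 1 symbol per gene. At 52 h HSP17.6C, HSP17.6B-CI and HSP17.4-CIII lie on the same side of 0 on every array, up to 1.09 above it on Col 52 h replicate 3 and down to -1.08 on bru1 52 h replicate 3.

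The genes whose levels over the 18 arrays were most like each of the 5, by Pearson correlation among 13349 others, differed between the strongly and the weakly changing ones. The values describe arrays that fall into 6 groups and share treatment and normalisation. HSP17.6C was most like HSP22 (r = 0.993), followed by cox2 of the mitochondrial genome (0.984) and HSP17.6B-CI (0.982). HSP17.6B-CI was most like the mitochondrial genome genes cox2 (0.995), nad6 (0.995) and nad5 (0.994), and the cox2 group means were 5.34, 10.24 and 7.84 in Col and 5.53, 10.55 and 7.68 in bru1 for control, 4 h and 52 h. HSP17.4-CIII was most like HOP3 (0.992), nad4L (0.990) and AT2G07708 (0.989). Likeness was weaker for HSP15.4, with AT4G37210 (0.862), AT3G02190 (0.846) and AT5G67630 (0.816), and for HSP14.2, with AT4G32800 (0.890), AT3G26085 (0.876) and AT1G72240 (0.868). AT4G32800 had group means of 6.46, 5.68 and 7.43 in Col and 5.64, 5.25 and 6.63 in bru1 for control, 4 h and 52 h, with the lowest value at 4 h and the highest at 52 h in each genotype, as HSP14.2 had.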

How the data were processed

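The authors deposited 1 log2 value per probe set and array, obtained by RMA per the submitters' processing notes (version, settings and number of runs: not given in the sources used here). Values between 2.63 and 14.6 fit that scale, and 0 pairs of arrays were identical. No further scaling was applied, and 64 control probe sets were left out of the tests. Group means were fitted jointly to the 18 arrays with limma 3.58.1 in R 4.3.3 (lmFit, eBayes, 12 residual degrees of freedom). This step was tested on simulated data with independent noise and 1 spread per probe set in all groups. That test does not cover the wider and shared spread of the 3 heat-induced genes at 52 h. There were 16 comparisons, of which 4 averages were added after the values were seen. Gene names came from the platform's probe annotation and RefSeq. Of 22746 probe sets 13513 had 1 gene, 503 had several and 8730 were not listed. The text names the 5 genes, measured family members, up to 4 larger chaperones with the largest change in Col at 4 h, and the 3 genes most correlated with each of the 5. A change from a group not shown to be above background is given as at least the bright mean minus the mean of, per array, the higher of the value and that array's lower quartile. The members and lists were chosen with earlier results of these data known. Same-numbered replicates gave correlations of deviations from the group mean of -0.51 to 0.22, over 0.1 for all 3 pairs in 1 of 9 comparisons (bru1 at 52 h against control). Depth has no counterpart on arrays, and their number limits the precision. Probe sequences were not used here, so cross-hybridisation within class I was not tested.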

Additional observations from a re-analysis of the deposited data

How the results depend on the processing

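Alternatives were a replicate block, a second quantile normalisation, a trended and robust variance, a filter on dim probe sets, a fit of only the groups compared, and each array left out. Of 400 changes of the 5 genes under the first 5 of these, 394 kept direction and side of the threshold and 6 came to pass. The replicate block changed no call of the 5 genes and no count of them (3 in Col at 4 h, for example). Of 720 changes with 1 array left out, 689 kept both, 6 came to pass, 4 were lost and 21 changed sign, all of them among changes that did not pass. The number of genes called between untreated genotypes was 2 in place of 0 with only those groups fitted, where 3189 of all probe sets passed in place of 2352 (14% in place of 10.3%), and 0 to 1 with 1 array left out. For the genotype average it was 1 to 2. With 1 array left out, sign changes gave these ranges for HSP15.4: -0.12 to 0.012 between untreated genotypes, -0.12 to 0.37 between genotypes at 4 h, -0.047 to 0.44 for the interaction at 4 h, -0.056 to 0.17 for Col at 52 h and -0.17 to 0.033 for the 52 h average. For HSP14.2 the interactions ranged from -0.072 to 0.33 at 4 h, -0.025 to 0.38 at 52 h and -0.099 to 0.20 for 52 h against 4 h. For HSP17.6B-CI the ranges were -0.54 to 0.25 between genotypes at 52 h and -0.78 to 0.011 for the interaction of 52 h against 4 h, and for HSP17.6C -0.92 to 0.10 for the interaction at 52 h, fitted from controls at background and so not an exact difference. The cause of these moves was not tested. Counts over all probe sets moved more: interactions called 78, 27 and 131 probe sets at 4 h, at 52 h and for 52 h against 4 h, but 227, 14 and 54 with only those groups fitted, 28 with the replicate block at 4 h, and 7 to 405, 8 to 142 and 67 to 544 with 1 array left out. Fits of only the groups compared gave 2201 in place of 3360 for Col at 52 h and 1001 in place of 2615 between genotypes at 52 h. With 1 array left out, counts went down to 1486 from 2352 between untreated genotypes, 1715 from 3048 at 4 h, 1549 from 2615 at 52 h, and 843 from 1647 for bru1 at 52 h.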
